A study of Mus musculus with 12 samples.

Results

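The genes described here are 35 presynaptic genes of the mouse hippocampus, which encode the proteins of synaptic vesicles and of the machinery that releases and retrieves them. They were taken from the deposited expression table by symbol and not by a cut on their values, though earlier results of these data were known. All 35 were found among its 36119 genes. Testing was limited to the 14947 genes whose mean over the libraries was 1 or more, and it included all 35. The table holds hippocampal RNA of C57BL/6 mice killed at postnatal day 70, in 4 groups of 3 libraries. As pups, ethanol mice were injected under the skin with ethanol at 2.5 g/kg per injection, 2 times a day with 2 hours between, on postnatal days 6 and 7. The vehicle was 0.15 M saline, which saline mice received alone in equal volume. Housing began on day 21 and was either standard or enriched. In enriched cages 2 to 6 littermates of 1 sex shared running wheels, ladders, toys and nest material. The groups are named by housing and injection, standard saline mice and standard ethanol mice, enriched saline mice and enriched ethanol mice. Every mouse was thus injected as a pup. The labels call the ethanol exposure prenatal although all injections followed birth, and they give neither the sex of the mice nor whether those of a group came from separate litters, so the p-values speak only of the spread among the libraries at hand. Values are the deposited TPM (a level corrected for transcript length and library size), and differences are log2 fold changes of TPM with 0.5 added. The sequencing depth behind a TPM is unknown.

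At a chemical synapse, transmitter is loaded into vesicles, and the vesicles are docked and primed at the active zone, a protein scaffold under the presynaptic membrane. Calcium entering with the action potential binds synaptotagmin, the SNARE proteins fuse vesicle and plasma membrane, and dynamin and its partners retrieve the membrane. In the hippocampus most synapses are glutamatergic, between the entorhinal input, dentate granule cells and CA3 and CA1 pyramidal cells, with GABAergic interneurons among them. RNA in a dissected hippocampus comes mainly from cell bodies, so transcripts of axons whose cell bodies lie elsewhere are largely outside it.

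Promoters of 28 of the 35 genes were found in the RefSeq table (GRCm38.p6), with 40 promoters between them. Snap25, Syt7, Rims2, Syt4, Vamp2, Nrxn2 and Syn3 were the others. Those of 4 genes, chosen for their expression values, are printed over the 250 bases before the RefSeq start. Whether these sequences bear on the values was not tested. Syn1 and Pclo varied together from library to library, Unc13b had the smallest p-value of the 35 genes, and Rab3c was the gene with the smallest p-value for ethanol in standard cages. Positions are chrX:20920919-20921168 on the minus strand for Syn1, chr5:14514668-14514917 on the plus strand for Pclo, chr4:43058703-43058952 on the plus strand for Unc13b and chr13:110280207-110280456 on the minus strand for Rab3c. In the GENCODE annotation, from which the gene positions come, Pclo and Unc13b start at the same base, Syn1 starts 86 bases and Rab3c 790 bases further upstream, so the stretch printed for Rab3c lies inside that gene model. Capitals mark the cAMP response element TGACGTCA and the left arm of the RE1 element, TTCAGCACC, in Syn1, and the GC box GGGCGG or its reverse complement CCGCCC in the other 3 sequences.
Syn1: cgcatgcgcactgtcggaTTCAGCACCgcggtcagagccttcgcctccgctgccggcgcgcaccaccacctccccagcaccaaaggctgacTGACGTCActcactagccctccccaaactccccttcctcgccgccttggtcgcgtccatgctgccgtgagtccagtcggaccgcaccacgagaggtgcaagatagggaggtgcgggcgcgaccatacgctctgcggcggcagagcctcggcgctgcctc
Pclo: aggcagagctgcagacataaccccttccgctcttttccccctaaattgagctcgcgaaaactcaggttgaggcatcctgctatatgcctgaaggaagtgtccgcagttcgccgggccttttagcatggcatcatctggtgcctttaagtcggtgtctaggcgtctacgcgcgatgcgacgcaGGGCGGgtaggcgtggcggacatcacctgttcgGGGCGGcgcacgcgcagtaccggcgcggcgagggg
Unc13b: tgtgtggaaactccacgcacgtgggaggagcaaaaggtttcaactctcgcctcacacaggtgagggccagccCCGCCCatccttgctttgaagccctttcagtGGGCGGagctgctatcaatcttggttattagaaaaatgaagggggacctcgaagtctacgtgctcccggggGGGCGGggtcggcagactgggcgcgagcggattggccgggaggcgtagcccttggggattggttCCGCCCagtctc
Rab3c: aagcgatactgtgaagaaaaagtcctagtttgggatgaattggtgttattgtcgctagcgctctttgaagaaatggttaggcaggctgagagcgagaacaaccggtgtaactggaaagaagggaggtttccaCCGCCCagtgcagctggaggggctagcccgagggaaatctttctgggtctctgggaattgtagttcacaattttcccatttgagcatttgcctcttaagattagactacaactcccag

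Each motif was searched on both strands. Syn1 was the 1 gene of the 28 with TGACGTCA, which 1.55% of all 32851 promoters of that length hold, and the 1 gene with TTCAGCACC, held by 0.301%. The right arm of the RE1 element, GGACAGC, was found before Sypl alone and in 5.28% of all promoters, and the Egr1 site GCGTGGGCG before Synj1 and Unc13a and in 0.536%. A GC box was present in 22 of the 40 promoters (55%), which belong to 20 genes, and in 32.7% of all promoters. It was found 2 times before Pclo, 4 times before Unc13b and 1 time before Rab3c. The 40 promoters had a median GC content of 59.4% and a median of 12.5 CpG dinucleotides, against 52.4% and 6 over all promoters. A match of letters is not a measured binding site.

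The libraries differed in features that bear on the values below. The summed level of 10 general neuron markers was between 3212 and 3432 TPM in standard saline mice, below the 3454 to 3618 of standard ethanol and the 3521 to 3639 of enriched ethanol mice without overlap, and between 3401 and 3560 in enriched saline mice. Markers of immature neurons summed to 21.9 to 28.3 TPM in the 6 saline libraries and to 32.7 to 36.7 TPM in the 6 ethanol libraries. Astrocyte markers summed to 958 to 973 TPM in enriched saline mice, just below every other library, the next being standard saline replicate 2. Meningeal fibroblast markers were lowest in standard saline mice, at 67.5 to 91.5 TPM, and CA1 pyramidal cell markers were lower there (284 to 333 TPM) than in either enriched group (333 to 390 TPM). The part of these markers in the differences below was not tested. Standard saline replicate 2 stood apart in regional markers. Its 8 dentate granule cell markers were on average 0.64 above their 12-library mean on the log2 scale and its 5 CA3 markers 0.42 above, while its 6 neocortex markers were at -0.67, its 8 striatum markers at -0.58 and its 10 myelin markers at -0.50. Of the libraries, enriched saline replicate 2 had the 8 choroid plexus markers at 3.98, standard ethanol replicate 1 had them at 1.18, and the rest ranged from -0.93 to -0.02. The thalamic and habenular markers Gbx2 and Pou4f1 and the marker Eomes of neuronal progenitors had means under 1.

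**Figure D1:**
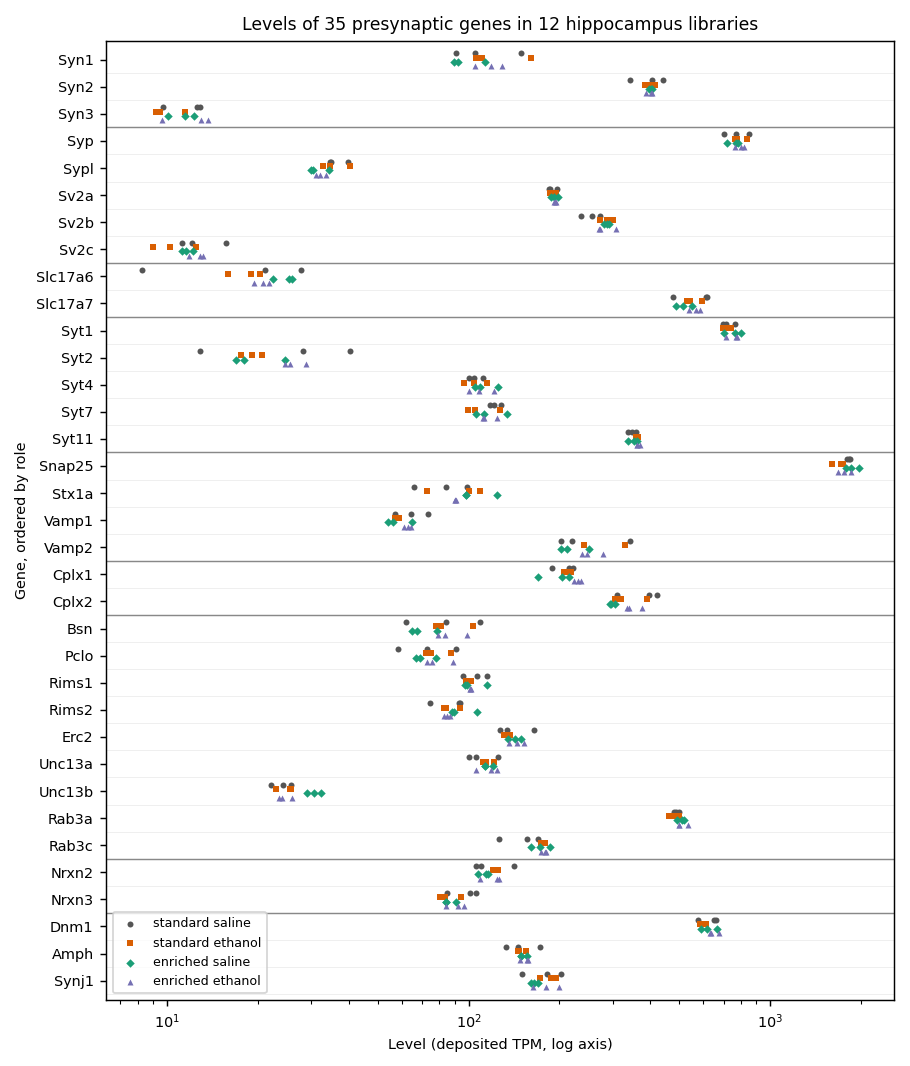
Levels of the 35 presynaptic genes, 1 row per gene in order of role, with the deposited TPM on a log axis and 1 point per library in 4 groups of 3. Means ran from 11.3 TPM for Syn3 to 1784 TPM for Snap25, and Slc17a6 and Syt2 were the genes spread over more than a 2-fold range.

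The 35 genes covered a wide range of levels and varied about as much as other genes at such levels. Means over the 12 libraries were at least 500 TPM for 5 genes, at least 100 TPM for 23 and below 50 TPM for 6. The highest were Snap25 (1784 TPM), Syp (779), Syt1 (737), Dnm1 (626) and Slc17a7 (551), and the lowest were Syn3 (11.3), Sv2c (12), Slc17a6 (20.7), Syt2 (23.1), Unc13b (26.0) and Sypl (34.1). The highest library exceeded the lowest by less than 1.5 times for 27 genes and by less than 1.25 times for 9, with a median ratio of 1.34. Sv2a had the smallest ratio, 1.08, and Slc17a6 (3.36) and Syt2 (3.13) were the 2 genes above 2. This ratio was not taken over all genes. The SD within groups had a median of 0.117 on the log2 scale over the 35 genes. It was 0.157 over all 14947 genes tested and 0.120 over the 9413 genes whose levels lay within the range of the 35. The range of the 4 group means had a median of 0.155 over the 35 genes, against 0.216 and 0.165 in these 2 larger sets.

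Synapsins coat the vesicle surface and hold vesicles in a reserve pool. Syn2 was the most abundant of them, at 3.68 times the level of Syn1 in the median library, and Syn3 was the lowest. Syn1 was at 90.6, 105 and 149 TPM in standard saline, 161, 111 and 106 in standard ethanol, 92.0, 89.6 and 113 in enriched saline and 129, 105 and 119 in enriched ethanol mice. Its 2 highest libraries were standard ethanol replicate 1 and standard saline replicate 3, and the groups overlapped. Syn2 lay between 343 and 440 TPM and Syn3 between 9.16 and 13.7 TPM. Syn3 shares 1733 exonic bases with Timp3 on the opposite strand (mean 43.9 TPM), and whether strand was used in the quantification is not given in the sources used here.

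Synaptophysin (Syp), the abundant vesicle protein that binds synaptobrevin, lay between 701 and 853 TPM. Its relative Sypl, which is also found outside neurons, was at 35.1, 34.6 and 39.9 TPM in standard saline, 40.5, 34.6 and 32.8 in standard ethanol, 30.0, 34.3 and 30.5 in enriched saline and 31.1, 32.1 and 33.5 in enriched ethanol mice. Both enriched groups lay below standard saline mice without overlap. The SV2 proteins are vesicle glycoproteins related to transporters, and Sv2a is the binding site of the antiepileptic drug levetiracetam. Sv2a was the steadiest of the 35 genes, between 184 and 199 TPM. Sv2b was at 236, 272 and 256 TPM in standard saline, 273, 301 and 287 in standard ethanol, 289, 282 and 292 in enriched saline and 273, 309 and 271 in enriched ethanol mice. Standard saline mice were lowest, and standard ethanol and enriched saline mice did not overlap them. Sv2c, the rare form, was at 15.7, 11.2 and 12.1 TPM in standard saline, 12.5, 8.97 and 10.3 in standard ethanol, 11.2, 11.6 and 12.2 in enriched saline and 12.9, 11.8 and 13.2 in enriched ethanol mice, and its groups overlapped.

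Vesicular glutamate transporters load glutamate into vesicles. Slc17a7 (VGLUT1), the form of hippocampal and cortical principal cells, lay between 475 and 619 TPM. Slc17a6 (VGLUT2), the main form of thalamic and other subcortical neurons, was at 27.8, 8.27 and 21.1 TPM in standard saline, 16, 18.9 and 20.4 in standard ethanol, 25.3, 22.5 and 26.0 in enriched saline and 19.4, 20.7 and 21.7 in enriched ethanol mice. Standard saline replicate 2 was the lowest of all 12 libraries and standard saline replicate 1 the highest. The ratio of Slc17a7 to Slc17a6 had a median of 26.7 and ran from 17.1 in standard saline replicate 1 to 73.9 in standard saline replicate 2. In bulk tissue, fewer cells of a type and less RNA per cell cannot be told apart. Slc17a6 correlated with the mean of the neocortex markers over the 12 libraries (Pearson's r = 0.88, Spearman's rho = 0.28, permutation p = 0.0121 and 0.379; adjusted, 0.470 for r), but r was 0.10 without the 2 libraries farthest from the median, so the relation rests on those. The summed level of the 6 neocortex markers was 112 TPM in standard saline replicate 2 and between 185 and 236 TPM in the other libraries.

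Synaptotagmins Syt1 and Syt2 are the fast calcium sensors of release, Syt2 mainly in certain inhibitory and brainstem neurons, and Syt7 serves slower release. Syt1 exceeded Syt2 by 32.4 times in the median library. Syt1 lay between 698 and 802 TPM. Syt2 was at 40.3, 12.9 and 28.2 TPM in standard saline, 20.6, 17.6 and 19.1 in standard ethanol, 24.7, 18.1 and 16.9 in enriched saline and 25.6, 28.9 and 24.6 in enriched ethanol mice. Standard saline mice held both the highest and the lowest library. Enriched ethanol mice lay above standard ethanol mice without overlap. Syt7 was at 118, 122 and 128 TPM in standard saline, 128, 105 and 99.3 in standard ethanol, 112, 106 and 134 in enriched saline and 124, 111 and 112 in enriched ethanol mice, with overlapping groups. Syt4 and Syt11, synaptotagmins not thought to act as fast calcium sensors, lay between 96.3 and 125 TPM and between 337 and 370 TPM. Syt11 was at 338, 348 and 358 TPM in standard saline and 358, 360 and 363 in standard ethanol mice, and at 361, 337 and 355 in enriched saline and 361, 362 and 370 in enriched ethanol mice. Ethanol libraries lay just above saline libraries in both housings, without overlap.

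SNARE proteins form the bundle that fuses the membranes, with Snap25 and syntaxin on the plasma membrane and synaptobrevin (Vamp) on the vesicle. Snap25, the highest of the 35, was at 1824, 1794 and 1835 TPM in standard saline, 1607, 1720 and 1743 in standard ethanol, 1858, 1783 and 1963 in enriched saline and 1756, 1850 and 1679 in enriched ethanol mice. Standard ethanol libraries lay below standard saline libraries without overlap, whereas the enriched groups overlapped. Stx1a was at 98.5, 66.1 and 84.0 TPM in standard saline, 72.6, 100 and 109 in standard ethanol, 98.0, 97.8 and 125 in enriched saline and 90.1, 90.0 and 91.0 in enriched ethanol mice. Its lowest library was standard saline replicate 2 and its highest enriched saline replicate 3. Vamp2, the main vesicle SNARE of the forebrain, exceeded Vamp1 by 4.04 times in the median library. Vamp2 was at 203, 221 and 342 TPM in standard saline, 329, 241 and 241 in standard ethanol, 212, 202 and 250 in enriched saline and 278, 237 and 247 in enriched ethanol mice. Vamp1 was at 73.4, 57.0 and 64.5 TPM in standard saline, 58.7, 57.2 and 58.1 in standard ethanol, 64.7, 54.0 and 56.2 in enriched saline and 64.3, 61.1 and 62.9 in enriched ethanol mice. Vamp2 was highest in standard saline replicate 3 and standard ethanol replicate 1, and Vamp1 in standard saline replicate 1.

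Complexins bind the assembled SNARE bundle and hold it ready for calcium. Cplx1 was at 223, 189 and 216 TPM in standard saline, 208, 215 and 219 in standard ethanol, 215, 170 and 204 in enriched saline and 231, 223 and 237 in enriched ethanol mice. Enriched ethanol mice were the highest group and did not overlap any other, although their lowest library and the highest standard saline library both round to 223 TPM. Cplx2 was at 311, 421 and 395 TPM in standard saline, 390, 305 and 321 in standard ethanol, 293, 306 and 296 in enriched saline and 375, 334 and 339 in enriched ethanol mice. Enriched saline mice were lowest, without overlap with standard saline or enriched ethanol mice. Cplx2 exceeded Cplx1 in every library, by 1.48 times in the median one and by 2.22 times in standard saline replicate 2.

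**Figure D2:**
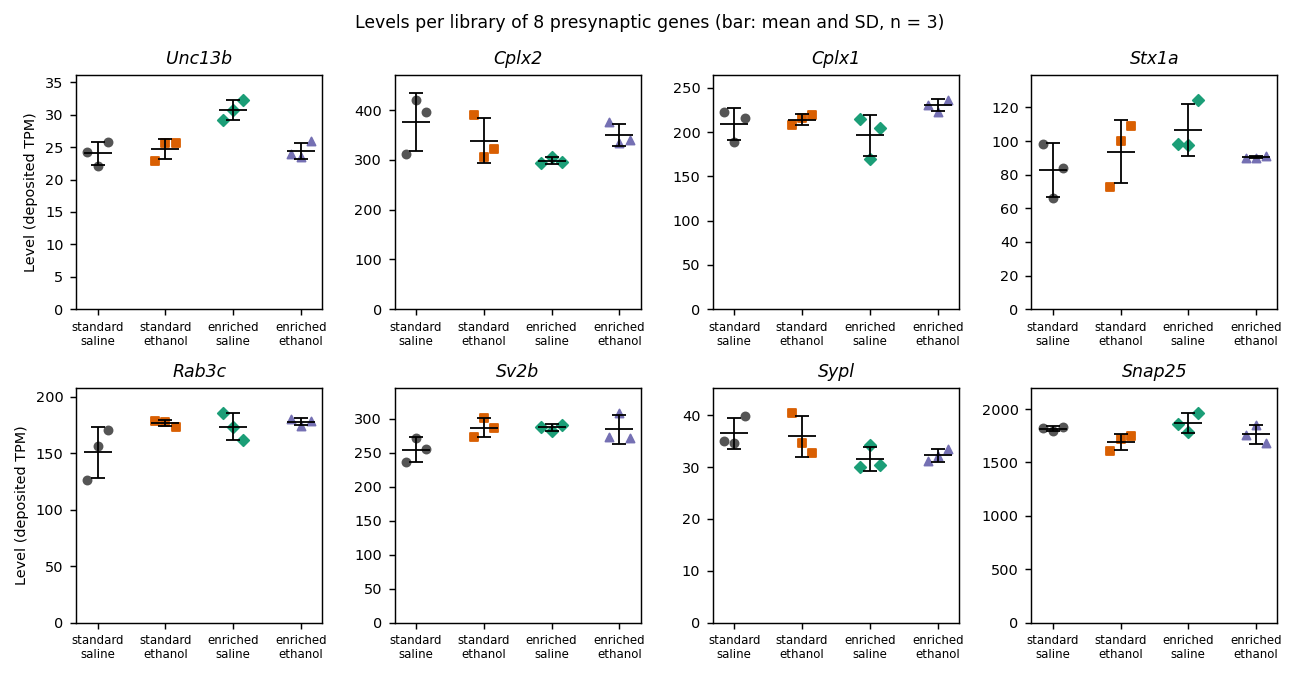
Levels of 8 presynaptic genes in deposited TPM from 0, with 1 point per library and a bar for the mean and SD of each group (n = 3). Enriched saline mice, at 29.1 to 32.3 TPM, lay above all other libraries for Unc13b.

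Bassoon (Bsn) and Piccolo (Pclo) are giant scaffold proteins of the active zone, Rims1, Rims2 and Erc2 are its organisers, and the Rab3 proteins tie vesicles to it. Unc13a and Unc13b encode priming factors that prepare docked vesicles for fusion, and Unc13a is the main one of most hippocampal synapses. Unc13a exceeded Unc13b by 4.39 times in the median library. Unc13b (ENSMUSG00000028456, chromosome 4, 43058953 to 43264871, GRCm38) was at 24.2, 22.2 and 25.8 TPM in standard saline, 22.9, 25.7 and 25.6 in standard ethanol, 29.1, 30.7 and 32.3 in enriched saline and 24, 23.5 and 25.9 in enriched ethanol mice. All 3 enriched saline libraries lay above the other 9, and the other 3 groups overlapped. Its relative Unc13a, which shares 495 exonic bases with Colgalt1 on the opposite strand, lay between 100 and 125 TPM. The ratio of Unc13a to Unc13b averaged 3.78 ± 0.327 in enriched saline mice (SD, n = 3) against 4.62 ± 0.875 in standard saline, 4.69 ± 0.520 in standard ethanol and 4.75 ± 0.213 in enriched ethanol mice.

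Bsn was at 62.2, 83.9 and 109 TPM in standard saline, 104, 80.9 and 77.9 in standard ethanol, 67.5, 64.9 and 78.8 in enriched saline and 98.8, 79.3 and 83.3 in enriched ethanol mice. Pclo was at 58.3, 72.7 and 90.7 TPM in standard saline, 87.7, 75.3 and 72.5 in standard ethanol, 69.2, 66.8 and 78.1 in enriched saline and 88.7, 75.7 and 73.0 in enriched ethanol mice. For both scaffolds the highest 3 libraries were standard saline replicate 3, standard ethanol replicate 1 and enriched ethanol replicate 1, which belong to 3 groups. Rims2 was at 93.2, 74.2 and 93.3 TPM in standard saline, 84.2, 83.1 and 93.6 in standard ethanol, 88.3, 89.4 and 107 in enriched saline and 83.0, 85.0 and 86.8 in enriched ethanol mice. Enriched ethanol libraries lay just below enriched saline libraries. Rims1 lay between 95.8 and 115 TPM and Erc2 between 127 and 164 TPM. Rab3c was at 126, 156 and 170 TPM in standard saline, 179, 177 and 173 in standard ethanol, 185, 173 and 162 in enriched saline and 180, 174 and 179 in enriched ethanol mice. Standard saline mice were lowest, and neither ethanol group overlapped them. Rab3a, the most abundant Rab of synaptic vesicles, was at 481, 498 and 486 TPM in standard saline, 463, 499 and 480 in standard ethanol, 509, 490 and 518 in enriched saline and 497, 532 and 499 in enriched ethanol mice, with overlapping groups.

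Neurexins are presynaptic adhesion proteins that bind postsynaptic partners across the cleft. Nrxn2 was at 106, 110 and 142 TPM in standard saline, 121, 124 and 125 in standard ethanol, 108, 116 and 114 in enriched saline and 124, 109 and 126 in enriched ethanol mice. Nrxn3 was at 84.8, 101 and 105 TPM in standard saline, 94.3, 83.5 and 80.5 in standard ethanol, 83.9, 84.2 and 90.7 in enriched saline and 96.7, 91.9 and 84.4 in enriched ethanol mice. The groups overlapped for both genes. Dynamin (Dnm1) cuts endocytic vesicles from the membrane, amphiphysin (Amph) recruits it and synaptojanin (Synj1) helps strip the clathrin coat by dephosphorylating its lipid anchor. Dnm1 was at 575, 650 and 661 TPM in standard saline, 609, 612 and 586 in standard ethanol, 619, 590 and 664 in enriched saline and 677, 639 and 630 in enriched ethanol mice. Enriched ethanol libraries lay above standard ethanol libraries. Amph lay between 133 and 172 TPM and Synj1 between 150 and 202 TPM.

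Standard ethanol against standard saline mice shows what ethanol in the first days of life left behind in adults kept in standard cages. No presynaptic gene passed the test. With the threshold at an adjusted p of 0.05 (Benjamini-Hochberg), limma called 0 of the 35 (0.0134% of all genes tested were called). Libraries of the groups did not overlap for 4 of the 35 (Rab3c, Sv2b and Syt11 higher in ethanol mice, Snap25 lower), against 12.1% of all genes. At an unadjusted p under 0.05 there were 2 of the 35, Rab3c and Sv2b, against 7.39% of all genes. Rab3c averaged 176 ± 2.75 TPM in standard ethanol (SD, n = 3) and 151 ± 22.6 in standard saline mice, with a log2 fold change of 0.24 and an SE of 0.09 (limma adjusted p = 0.584). Sv2b averaged 287 ± 14.1 against 255 ± 18.2 TPM, with a log2 fold change of 0.17 and an SE of 0.07 (limma adjusted p = 0.595). Both rested in part on standard saline replicate 1, without which Rab3c had 0.12 (limma adjusted p = 0.628) and Sv2b 0.12 (limma adjusted p = 0.637). Snap25, with 1690 ± 72.6 against 1817 ± 21 TPM, had a log2 fold change of -0.11, Nrxn3 one of -0.17, Sv2c one of -0.29 and Syt11 one of 0.05, with limma adjusted p from 0.687 to 0.864. Without standard saline replicate 1, Nrxn3 was at -0.26, Sv2c at -0.15 and Syt11 at 0.03. Nrxn3 was at -0.10 without standard saline replicate 3, Sv2c at -0.18 without standard ethanol replicate 2 and Snap25 at -0.07 without standard ethanol replicate 1. The median log2 fold change of the 35 genes was 0.007, against 0.002 over all genes tested, and 18 were positive (50.7% of all genes). The median SE was 0.092 for the 35 and 0.128 for all genes. The 95% interval of the difference lay within 1.5-fold in either direction for 32 of the 35 genes (71.3% of all genes). It lay within 1.25-fold for 21 (36.9% of all genes). For Slc17a6, Syt2 and Sv2c the interval reached beyond 1.5-fold. Syt2 and Slc17a6 depended on standard saline replicates 1 and 2, their highest and lowest libraries. With all libraries the log2 fold changes were -0.35 and 0.11. Without replicate 2 they were -0.80 (SE 0.18, limma adjusted p = 0.284) and -0.39 (SE 0.13, limma adjusted p = 0.606). Without replicate 1 they were -0.0004 (SE 0.26) and 0.45 (SE 0.28, limma adjusted p = 0.656).

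Enriched ethanol against enriched saline mice shows the same exposure in the other housing. Unc13b was lower and both complexins were higher in ethanol mice, but no gene passed. limma called 0 of the 35 genes (0% of all genes were called), and 2 had an unadjusted p under 0.05, against 7.76% of all genes. Groups did not overlap for 8 of the 35, against 15.2% of all genes. These 8 were Unc13b, Slc17a6, Stx1a and Rims2, which were lower in ethanol mice, and Cplx1, Cplx2, Bsn and Syt11, which were higher. Unc13b averaged 24.4 ± 1.27 TPM in enriched ethanol mice, against 30.7 ± 1.59 in their saline controls (n = 3 each), with a log2 fold change of -0.32 and an SE of 0.08 (limma adjusted p = 0.551). Cplx1 averaged 230 ± 6.85 against 196 ± 23.4 TPM, with a log2 fold change of 0.24 and an SE of 0.09 (limma adjusted p = 0.592). Cplx2 averaged 349 ± 22.7 against 298 ± 6.68 TPM, with a log2 fold change of 0.23 and an SE of 0.11 (limma adjusted p = 0.662). Bsn, Rims2 and Snap25 had log2 fold changes of 0.30, -0.15 and -0.08, with limma adjusted p from 0.697 to 0.738. Cplx1 was lowest in enriched saline replicate 2, at 170 TPM, the library with the choroid plexus markers at 3.98. Without that library its log2 fold change was 0.14 (limma adjusted p = 0.841). Rims2 was at -0.07 without enriched saline replicate 3, and Snap25 at -0.05 without that library or without enriched ethanol replicate 3. The median log2 fold change of the 35 genes was 0.038, against -0.007 over all genes, and 24 were positive (48.0% of all genes). Intervals lay within 1.5-fold for 30 of the 35 genes and within 1.25-fold for 20 (70.5% and 35.6% of all genes).

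**Figure D3:**
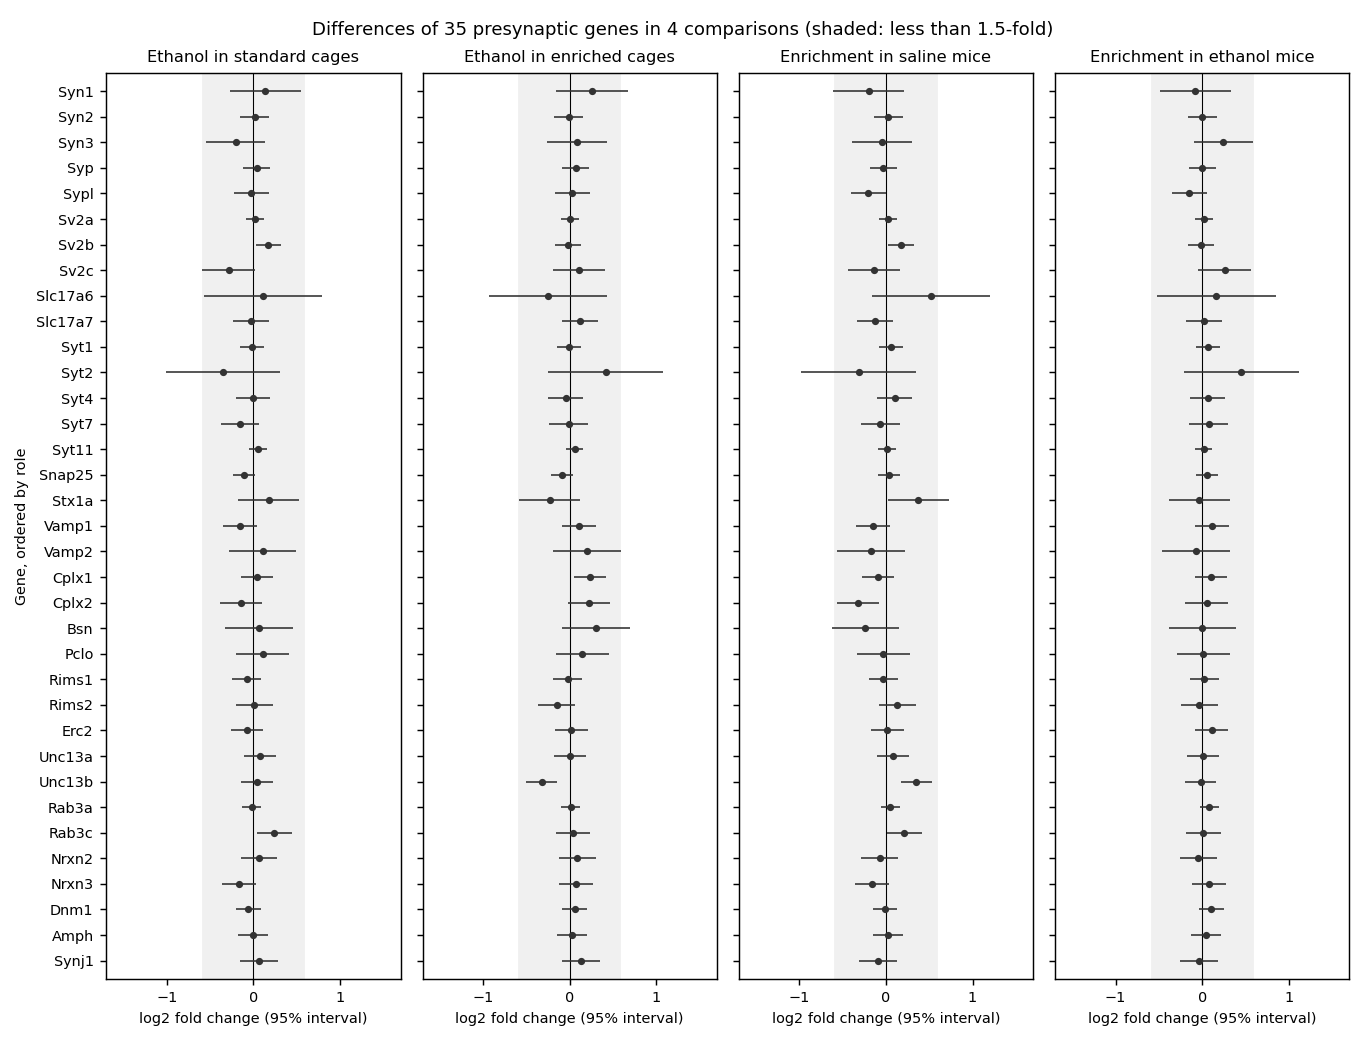
Log2 fold changes of the 35 genes, 1 row per gene, in the 4 comparisons of 2 groups, with 95% intervals from limma and the range below 1.5-fold shaded. Most intervals lie inside the shaded range, and those of Slc17a6 and Syt2 are the widest.

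Enrichment in saline mice set enriched saline against standard saline mice. Here Unc13b, Sv2b, Stx1a and Rab3c were higher and Cplx2 and Sypl lower at an unadjusted p under 0.05, which made 6 of the 35 genes, against 10% of all genes. limma called 0 of the 35 after adjustment (0.0268% of all genes were called). Groups did not overlap for 4 of the 35 (Unc13b, Sv2b, Cplx2 and Sypl), against 14.0% of all genes. Unc13b averaged 30.7 ± 1.59 TPM in enriched and 24.1 ± 1.81 in standard mice, with a log2 fold change of 0.35 and an SE of 0.08 (limma adjusted p = 0.264), the smallest adjusted p of the 35 genes in the 8 comparisons. Cplx2 averaged 298 ± 6.68 against 376 ± 57.5 TPM, with a log2 fold change of -0.32 and an SE of 0.11 (limma adjusted p = 0.414). Sv2b averaged 287 ± 5.06 against 255 ± 18.2 TPM, with a log2 fold change of 0.18 and an SE of 0.07 (limma adjusted p = 0.432). Stx1a averaged 107 ± 15.4 against 82.9 ± 16.2 TPM, with a log2 fold change of 0.37 and an SE of 0.16 (limma adjusted p = 0.480). Sypl and Rab3c had log2 fold changes of -0.21 and 0.21, each with an SE of 0.09, and Nrxn3 one of -0.16. Standard saline replicate 2, which was lowest for Stx1a and highest for Cplx2, moved both values. Without it they were 0.22 and -0.23, while Unc13b was at 0.29 (limma adjusted p = 0.697, 0.571 and 0.353). Stx1a was at 0.51 and Cplx2 at -0.45 when standard saline replicate 1 was left out instead (limma adjusted p = 0.224 and 0.140). Without standard saline replicate 1, Rab3c was at 0.09 (limma adjusted p = 0.575) and Nrxn3 at -0.26, and without replicate 3 Nrxn3 was at -0.10. Slc17a6 was at 0.52 with all libraries, 0.02 without standard saline replicate 2 and 0.87 without replicate 1 (limma adjusted p = 0.974 and 0.219 without them). Syt2 was at -0.32, -0.77 and 0.04 in these fits (limma adjusted p = 0.226 without replicate 2 and 0.962 without replicate 1). The median log2 fold change of the 35 genes was -0.03, against 0.003 over all genes, and 16 were positive (50.9% of all genes). Intervals lay within 1.5-fold for 30 genes and within 1.25-fold for 17 (69.4% and 34.8% of all genes).

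Enrichment after ethanol set enriched ethanol against standard ethanol mice and asks what housing altered in mice that had received ethanol. limma called 0 of the 35 genes (0.00669% of all genes were called), and 0 had an unadjusted p under 0.05, against 5.57% of all genes. Groups did not overlap for 4 of the 35, against 12% of all genes. These were Syt2, Vamp1, Cplx1 and Dnm1, all higher in enriched mice. Syt2 averaged 26.4 ± 2.21 TPM in enriched and 19.1 ± 1.52 in standard ethanol mice, with a log2 fold change of 0.45 and an SE of 0.31 (limma adjusted p = 0.940). The fit shares the spread of all groups, and Syt2 spread widest in standard saline mice, which are not compared here. Without standard saline replicate 2 the SE was 0.16 and the limma adjusted p 0.753, and without replicate 1 they were 0.23 and 0.822. Dnm1, Rab3a and Sv2c had log2 fold changes of 0.11, 0.08 and 0.26, and Sypl, Nrxn2 and Syn1 of -0.15, -0.05 and -0.08, with limma adjusted p of at least 0.901. Sypl was at -0.06 without standard ethanol replicate 1, Sv2c at 0.15 without standard ethanol replicate 2 and Rab3a at 0.05 without enriched ethanol replicate 2. Syn1 and Nrxn2 changed sign with 1 library left out. The median over the 35 genes was 0.022, against -0.005 over all genes. Intervals lay within 1.5-fold for 33 genes and within 1.25-fold for 26 (72.0% and 38.0% of all genes).

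Mice with both ethanol and enrichment were also set against those with neither. limma called 0 of the 35 genes (0.0134% of all genes were called), and 2, Rab3c and Sv2b, had an unadjusted p under 0.05, against 6.52% of all genes. Groups did not overlap for 4 of the 35 (Rab3c, Cplx1 and Syt11 higher, Sypl lower), against 10.7% of all genes. Rab3c averaged 178 ± 3.11 TPM with both and 151 ± 22.6 with neither, with a log2 fold change of 0.25 and an SE of 0.09 (limma adjusted p = 0.706). Sv2b, Cplx1 and Sypl had log2 fold changes of 0.16, 0.14 and -0.18, and Nrxn3 and Cplx2 of -0.09 each. Rab3c and Sv2b were thus above standard saline mice in each comparison with them. The comparisons with standard saline mice share the same 3 control libraries, and standard saline replicate 1 was the lowest of all 12 libraries for both genes and for the sum of the general neuron markers. Without it, Rab3c had a log2 fold change of 0.13 (limma adjusted p = 0.646) and Sv2b one of 0.11 (limma adjusted p = 0.713) for both against neither, and Sv2b had 0.10 without enriched ethanol replicate 2. Cplx1 was at 0.07 without standard saline replicate 2 and Sypl at -0.11 without standard saline replicate 3. As single libraries of the compared groups were left out, Cplx2 ran from -0.22 to -0.01 and Nrxn3 from -0.18 to -0.02.

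The interaction asks whether the ethanol difference in enriched cages departs from that in standard cages. limma called 0 of the 35 genes (0.0134% of all genes were called), and 2, Unc13b and Cplx2, had an unadjusted p under 0.05, against 7.41% of all genes. For Unc13b the ethanol difference was 0.04 in standard and -0.32 in enriched cages, a log2 interaction of -0.36 (SE 0.12; limma adjusted p = 0.569). For Cplx2 it was -0.15 and 0.23, an interaction of 0.37 (SE 0.16; limma adjusted p = 0.648). Vamp1, Sv2c, Sv2b and Stx1a had interactions of 0.26, 0.39, -0.19 and -0.41, with limma adjusted p from 0.687 to 0.725. Without standard saline replicate 1 the interaction was 0.17 for Vamp1, 0.26 for Sv2c and -0.54 for Stx1a. For Stx1a it was -0.25 once replicate 2 of that group was left out. The interaction of Syt2 was 0.77 with all libraries and 1.22 (SE 0.24, limma adjusted p = 0.273) without standard saline replicate 2. Without standard saline replicate 1 it was 0.42 (SE 0.35, limma adjusted p = 0.702). Intervals of the interaction lay within 1.5-fold for 25 of the 35 genes and within 1.25-fold for 10, so smaller departures were not resolved. The shares of all genes were 51.9% and 15.8%.

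Averaged over the other factor, each effect compared 6 libraries with 6. For ethanol, limma called 0 of the 35 genes (0.0134% of all genes were called), and Unc13b, Snap25 and Cplx1 made 3 with an unadjusted p under 0.05, against 8.02% of all genes. Unc13b had a log2 fold change of -0.14, Snap25 one of -0.10 and Cplx1 one of 0.14 (limma adjusted p = 0.577, 0.597 and 0.607). Rab3c, Syt11 and Syt7 had 0.14, 0.05 and -0.08. Cplx1 was at 0.09 without enriched saline replicate 2, Rab3c at 0.08 without standard saline replicate 1, and Syt7 between -0.14 (without standard ethanol replicate 1) and -0.03 (without enriched saline replicate 3). The groups overlapped for every one of the 35 genes, as they did for all but 0.415% of the genes tested. For enrichment, limma again called 0 (0.0201% of all genes were called), and Unc13b and Sypl made 2 with an unadjusted p under 0.05, against 7.96% of all genes. Unc13b had a log2 fold change of 0.17 and Sypl one of -0.18 (limma adjusted p = 0.572 and 0.585), while Rab3a, Rab3c, Cplx2 and Syn1 had 0.07, 0.11, -0.13 and -0.14. Rab3c was at 0.05 without standard saline replicate 1 and Cplx2 at -0.08 without standard ethanol replicate 1. Syn1 was at -0.22 with that standard saline library left out and at -0.04 with replicate 3 of the group left out. Groups overlapped for all 35 genes, with 0.375% of all genes not overlapping. Intervals of the averaged differences lay within 1.5-fold for 35 genes for ethanol and 34 for enrichment, and within 1.25-fold for 29 and 28. The shares of all genes were 84.4% and 83.7% within 1.5-fold, and 57.7% for each within 1.25-fold.

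The 35 genes also varied between libraries of the same group. Syn1, Vamp2, Bsn, Pclo, Syp and Synj1, which encode vesicle, SNARE, scaffold and endocytic proteins, were high in the same libraries and low in the same libraries. Over the 12 libraries, 10 of the 595 pairs of the 35 genes had a Pearson's r of at least 0.9, and 9 of those 10 were pairs among these 6 genes. That is 1.68% of their pairs, against 0.0167% of all pairs of tested genes. At an r of at least 0.8 there were 25 pairs, or 4.20% against 0.236%. With each group centred at 0 the counts were 15 (2.52% against 0.0983%) and 41 (6.89% against 0.789%). They included 9 of the 10 pairs and 23 of the 25, the exceptions being Bsn with Synj1 (0.89) at the higher bound and Vamp2 with Synj1 (0.77) and Stx1a with Rims2 (0.80, just under the bound) at the lower one. These shares are a description, since the points share their libraries and normalization. Syn2 and Amph were the tenth pair. Standard saline replicate 1 was the lowest of the 12 libraries for 14 of the 35 genes, and standard saline replicate 3 the highest for 9. These counts were not made over all genes tested, so they cannot be called particular to the 35.

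**Figure D4:**
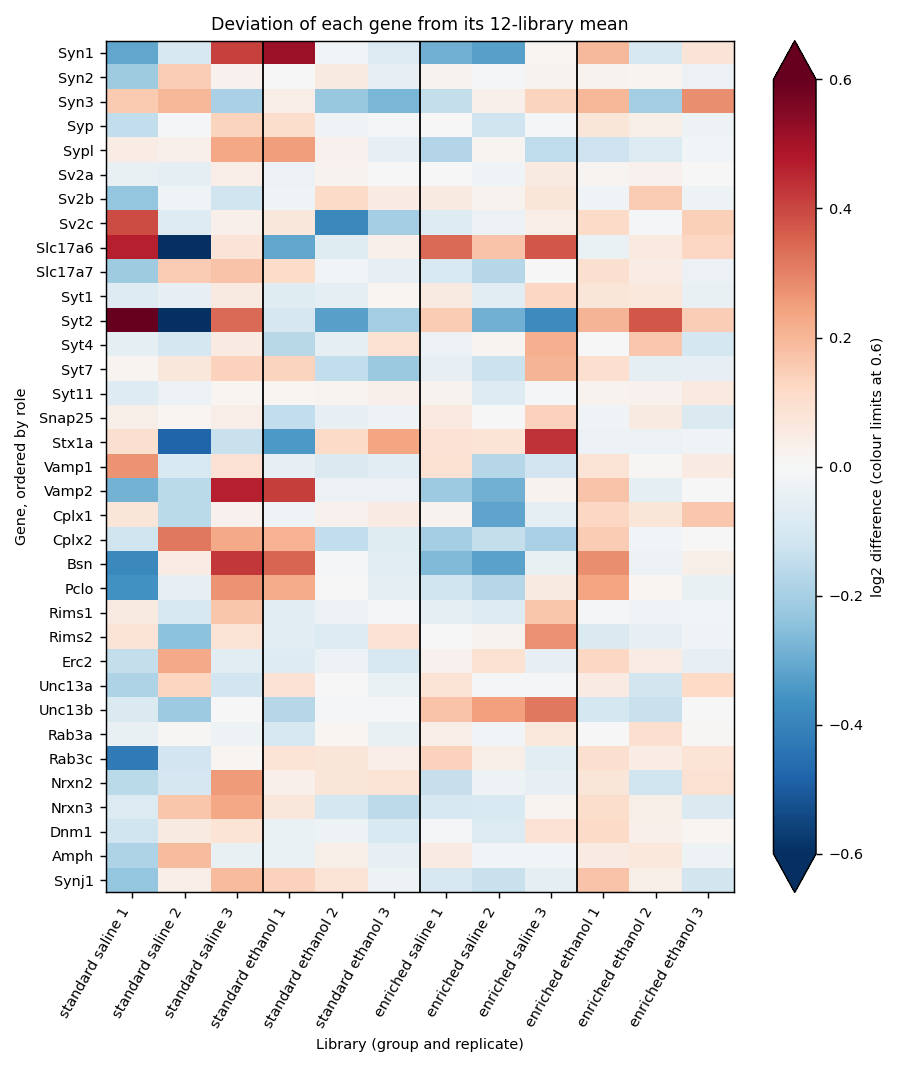
Deviation of each of the 35 genes (rows, by role) from its 12-library mean in each library (columns, by group), on the log2 scale with colours limited at 0.6 in either direction. Syn1, Vamp2, Bsn and Pclo are high in standard saline replicate 3 and standard ethanol replicate 1 and low in standard saline replicate 1.

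The genes that moved together also followed a property of the library. For each library, Spearman's rho was taken across 14905 genes between a gene's deviation from its 12-library mean and the length of its longest transcript. This length correlation ran from -0.17 in enriched saline replicate 2 to 0.22 in enriched ethanol replicate 1, so that long genes read higher in some libraries than in others. Bsn followed it with r = 0.94 and rho = 0.91 (permutation p = 3e-05 and 0.00015; adjusted, 0.101 for r), and r was 0.94 without the 2 farthest libraries and 0.95 with groups centred at 0. Pclo followed it with r = 0.92 and rho = 0.91 (permutation p = 2e-05 and 0.00012; adjusted, 0.0868 for r), and r was 0.87 without the 2 farthest libraries and 0.96 with groups centred. Synj1, Syp, Slc17a7, Syn1, Vamp2 and Nrxn3 had r between 0.82 and 0.89. These 8 of the 35 genes (22.9%) had an absolute r of at least 0.8, against 2.94% of all genes. The 8 were not all long genes. Their longest transcripts ran from 2205 bases for Vamp2 to 20084 for Pclo, while Unc13b, with 14754, was not among them. The part of transcript length in their variation was not tested. None of the 630 relations of the 35 genes with 18 library measures passed after adjustment over all 269046 relations of the genes tested. Of all genes tested, 0% passed with any of the measures, so this says nothing particular to the 35. The length measure was chosen after the data were seen.

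**Figure D5:**
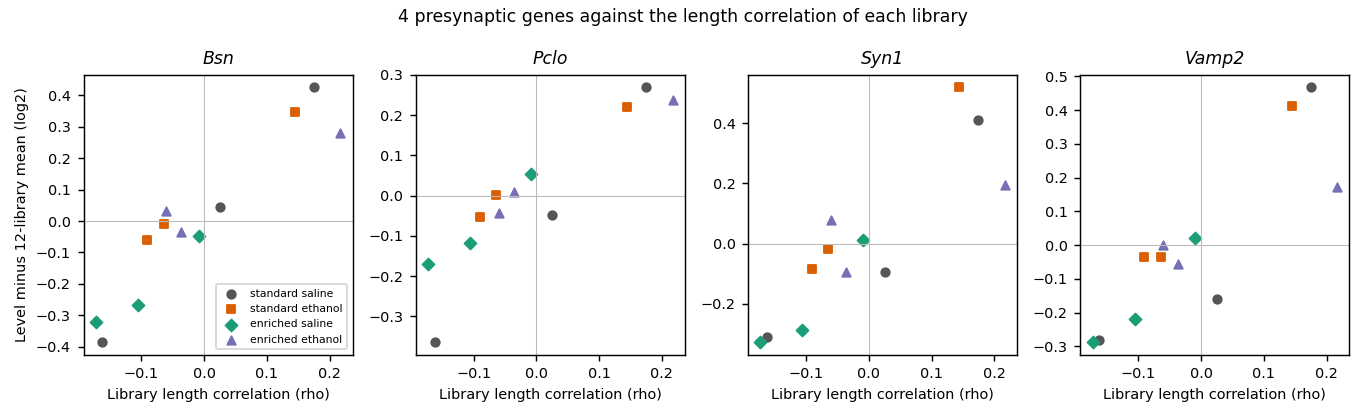
Deviation of Bsn, Pclo, Syn1 and Vamp2 from their 12-library means (vertical axis, log2) against the length correlation of each library (horizontal axis, Spearman's rho), 1 point per library. Libraries of every group lie along the same rising course, from -0.17 to 0.22 on the horizontal axis.

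The length correlation was then added to the fit as a covariate. The 8 genes above were chosen by their relation with it, so some shift of their differences was built in and does not test that relation. The differences of these 8 genes became smaller for all 8 between the enriched groups and for 7 between the saline groups, but larger for 6 of the 8 between the standard groups and for 6 between the ethanol groups. For enriched against standard saline mice, Bsn had a log2 fold change of -0.24 without and -0.05 with the covariate, Syn1 -0.20 and -0.01, and Vamp2 -0.17 and 0.01. For enriched ethanol against enriched saline mice, Bsn had 0.30 and 0.06, Syn1 0.26 and 0.02, and Vamp2 0.20 and -0.02. Pclo went from -0.03 to 0.12 in the first of these comparisons. For enriched against standard ethanol mice, Syn1 had -0.08 without and -0.16 with the covariate and Vamp2 -0.07 and -0.15. Unc13b had 0.35 and 0.34 in the comparison of saline mice and -0.32 and -0.31 in that of enriched mice, and Cplx1 had 0.24 and 0.24 in the latter. Cplx2 was at -0.32 and -0.23 between the saline groups and at 0.23 and 0.11 between the enriched groups. The median log2 fold change of the 35 genes for enrichment in saline mice was 0.029 with the covariate, so its sign turned. limma called 0 of the 35 genes with the covariate in each of the 8 comparisons.

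Other library measures moved with single genes. Sypl followed the summed level of the mitochondrially encoded transcripts (r = 0.91, rho = 0.78, permutation p = 5e-05 and 0.00376; adjusted, 0.116 for r), with r = 0.82 without the 2 farthest libraries and 0.91 with groups centred. Stx1a was higher and Cplx2 lower in libraries with a higher mean log2 deviation of the striatum markers. For Stx1a r was 0.83 and rho 0.72 (permutation p = 0.0004 and 0.0109; adjusted, 0.211 for r), with r = 0.68 without the 2 farthest libraries. For Cplx2 r was -0.86 and rho -0.89 (permutation p = 0.00052 and 0.00026; adjusted, 0.222 for r), with r = -0.73 without them. The summed level of the 8 striatum markers ran from 99.4 to 109 TPM in standard saline and from 119 to 137 in enriched saline mice, the groups in which Stx1a and Cplx2 differed most, and from 105 to 116 in standard ethanol and 101 to 114 in enriched ethanol mice. The summed level is not the mean deviation used for r. Standard saline replicate 2 had the lowest mean deviation of all libraries (-0.58) but the highest sum of its group (109 TPM). The part of tissue composition in the differences of Stx1a and Cplx2 was not tested.

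A wider list of 88 other presynaptic genes was read the same way, of which 87 were in the table and 85 were tested. limma called 0 of the 85 in each of the 8 comparisons. At an unadjusted p under 0.05 there were 6 for ethanol in standard cages, 4 for ethanol in enriched cages, 11 for enrichment in saline mice and 4 for enrichment in ethanol mice, and between 4 and 8 in the other 4 comparisons. The shares of all genes are those given above. Slc30a3 (ZnT3), which loads zinc into glutamatergic vesicles, was at 44.9, 53.8 and 42.2 TPM in standard saline and 35.2, 30.4 and 36.7 in standard ethanol mice (a log2 fold change of -0.45 and an SE of 0.10, limma adjusted p = 0.271). Sh3gl3, an endophilin of endocytosis, was at 41.3, 45.4 and 36.7 against 53.4, 54.2 and 53.6 TPM (a log2 fold change of 0.39 and an SE of 0.10, limma adjusted p = 0.341). Neither pair of groups overlapped, and Slc30a3 was highest in standard saline replicate 2, as the dentate granule cell markers were. The summed level of those 8 markers ran from 225 to 331 TPM in standard saline and from 165 to 209 in standard ethanol mice, and its part in the difference was not tested. Rab3b, a further Rab3 protein, was at 48.8, 47.8 and 59.4 TPM in standard saline, 61.0, 66.7 and 68.3 in standard ethanol, 65.1, 74.1 and 63.4 in enriched saline and 51.1, 52.2 and 64.2 in enriched ethanol mice. Its ethanol difference was 0.33 in standard and -0.28 in enriched cages, an interaction of -0.61 (SE 0.15; limma adjusted p = 0.509). Syt16, a synaptotagmin relative, was at 76.1, 64.4 and 55.9 TPM in standard saline and 85.6, 90.2 and 98.2 in enriched saline mice (a log2 fold change of 0.49 and an SE of 0.12, limma adjusted p = 0.266). Ppfia1, a liprin of the active zone, was at 20.8, 20.8 and 20.02 TPM in standard ethanol and 18.8, 14.0 and 13.9 in enriched ethanol mice (a log2 fold change of -0.40 and an SE of 0.11, limma adjusted p = 0.861). For ethanol in enriched cages, Erc1 and Ston2 had the smallest p-values among higher genes and Syt5 and Rab3b among lower ones, with log2 fold changes of 0.16, 0.27, -0.20 and -0.28.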

How the data were processed

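RNA of 12 hippocampi was measured, 3 in each of 4 groups taken from the sample titles and tags. Per the labels' protocols, a stranded total RNA kit was used and ribosomal RNA was removed. CASAVA, kallisto and sleuth and the build mm10 are named, per the submitters' processing notes, without versions or order. The deposited table is called TPM by the authors, yet the column sums vary from 973187 to 1024536. The deposited values were therefore read as a signal that follows TPM within each library. TPM keeps no read counts, so depth and counting error are unknown. Column names gave the sample of each of the 12 columns, leaving 0 unused, and 35827 of 36119 identifiers had a symbol.

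Values were analysed as log2(value + 0.5) for genes with a mean of at least 1, which understates the change of low genes. The model, in limma 3.58.1 under R 4.3.3, had 1 mean for each group, used every library and included a mean-variance trend (8 residual degrees of freedom and 3.82 from the prior). For each of 8 two-sided comparisons, p-values were adjusted by the Benjamini-Hochberg method across the 14947 genes, and 0.05 was the threshold. Comparisons that use the same group share its libraries. The procedure was tested on simulated data for ethanol in standard cages. It called 51% of 100 genes changed 1.5-fold and 76% of 100 genes changed 2-fold, so many real changes would be missed. Of its calls, 7.97% fell on unchanged genes, and 0 genes were called when none was changed. Correlations used 100000 permutations of the libraries, two-sided, with a smallest possible p of 1e-05. The values gave no sign that replicate numbers pair the libraries. Deviations correlated over 0.1 in 0 of 18 same-numbered pairs and in 2 of 36 other pairs. This cannot exclude a shared litter, cage or batch. The named genes are, per comparison, the 3 in each direction with the smallest p among the 35, and the 2 in each direction of the wider list. The 35 genes, the other lists and the tests were chosen with earlier results of these data known. Alternatives were other pseudocounts, filters and scalings, a replicate block, no trend, leaving out each library, and the length correlation as a covariate. Gene positions and lengths come from the GENCODE annotation of GRCm38, and sequences from RefSeq.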

Additional observations from a re-analysis of the deposited data

How the results depend on the processing

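Under all 21 alternatives, 12 of which left out a library, limma called 0 of the 35 genes and 0 of the 85 other presynaptic genes in each of the 8 comparisons. It called between 0 and 21 of all genes tested in these fits, so a count of 0 among 35 genes says little about stability. Other filters, no trend, the replicate block and leaving out libraries of groups not compared leave a difference between 2 groups as it was. The named genes were also chosen by their smallest p in each direction. Of the 1008 recomputed differences of the named genes among the 35, 1006 kept their direction, for many of them fixed in advance. The exceptions both concern enrichment in ethanol mice, where leaving out single libraries gave -0.19 to 0.11 for Syn1 (positive without standard ethanol replicate 1) and -0.085 to 0.020 for Nrxn2 (positive without enriched ethanol replicate 2). The lowest adjusted p of any was 0.140, for Cplx2 with enrichment in saline mice without standard saline replicate 1. Counts at an unadjusted p under 0.05 moved more, from 0 to 7 for ethanol in standard cages and from 3 to 9 for enrichment in saline mice, as libraries were left out or the trend was dropped. The median over the 35 genes for ethanol in standard cages was -0.04 without standard saline replicate 1 and 0.04 without replicate 3. The covariate was chosen after the data were seen. With it, the median was 0.029 for enrichment in saline mice and -0.024 for the interaction. With the replicate number as a block, limma called 0 of the 35 genes in every comparison, and the count at an unadjusted p under 0.05 was 4 for the interaction and 4 for enrichment in saline mice. Same-numbered deviations correlated between -0.151 and 0.058, which gives no sign of pairing by number but cannot exclude it. With 3 libraries a group and unknown depth, differences under about 1.25-fold were not resolved for many of the 35 genes.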

Other observations

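Presynaptic genes outside the 35 also ranged widely in level. Ap2m1, a subunit of the clathrin adaptor, averaged 731 TPM over the 12 libraries, and Nsf, the ATPase that takes spent SNARE bundles apart, 610 TPM. Slc32a1, the transporter that loads GABA into vesicles, lay between 26.6 and 35.1 TPM. Rims3 (14.7 to 42.9 TPM), Doc2a (8.95 to 28.9) and Cplx3 (2.87 to 16.8) each spread over more than a 2-fold range. The glutamate transporter Slc17a8 (VGLUT3) averaged 2.27 TPM, the monoamine transporter Slc18a2 5.24 TPM, and the acetylcholine transporter Slc18a3 was below the minimum mean of 1, at 0.101 TPM.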
